A study of Mus musculus with 16 samples.

Results

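The untreated cultures of the series are 2 RNA-seq libraries of its 16 samples, titled CTRL and CTRL2, and they are set against each other here gene by gene. Both came from cultured primary neurons of E16 cortex of Swiss-Webster mice, grown in neurobasal medium with B27, and neither title names a treatment. A culture given 5 µM etoposide (ETOP), which traps type II topoisomerases on DNA, stands in the authors' deposited table with CTRL. A culture given NMDA, an agonist of a class of glutamate receptors, stands there with CTRL2. For most experiments the labels give 50 µM NMDA applied over 10 min and a recovery of 10 min without it, whereas no duration stands there for etoposide. The other 12 samples are chromatin samples and were not analysed here. Each group has 1 library, and the labels do not say how many embryos or dissections a culture pools. No test was therefore possible, and no difference below has a replicate check.

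The genes compared were chosen by level alone. The gene lists were drawn up with earlier results of these data known, so their counts and medians are a description. Of the 22440 genes in each table, 12987 had at least 1 FPKM (fragments per kilobase of transcript, scaled by library) in CTRL or CTRL2. The measure is log2((CTRL2 + 1)/(CTRL + 1)) minus its median over these genes, called the relative log2 below, so that 0 is the median gene and 1 is a 2-fold difference from it. The subtracted median was 1.32, because 98.4% of the genes had the higher deposited value in CTRL2, and it was 0.09 once the tables were brought to 1 scale. By this measure 1042 genes (8.02%) stood 2-fold or more above it in CTRL2 and 385 (2.96%) 2-fold or more below. Folds called scaled are plain FPKM ratios divided by 2.88, the median CTRL2 to CTRL ratio of the 5284 genes at 5 FPKM or more in both libraries. Their intervals are exact 95% binomial intervals built on estimated fragment numbers, so only counting error enters them.

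Cortex taken at this embryonic stage contains newborn neurons together with radial glia, the progenitors that line the ventricle. Radial glia go on to make astrocytes and oligodendrocyte precursors, which divide in culture while neurons do not. A serum-free medium with B27 favours neurons and does not remove glia. The transcripts of astrocytes, of the oligodendrocyte lineage, of progenitors and of neurons therefore describe the makeup of such a culture, and stress and metabolic transcripts describe its state.

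Oligodendrocyte precursor transcripts were close to absent from CTRL for most markers and present in CTRL2. All 10 members compared were above the median gene in CTRL2, 7 of them at least 2-fold, with a list median of 2.09 against 0 for all genes. Of these 10 genes 7 were under 1 FPKM in CTRL and so were compared only because CTRL2 was higher, which makes the count and the median a description. With at least 1 FPKM required in both libraries the median was 0.92, below the 1.36 of the astrocyte list, and with a pseudocount of 10 FPKM it was 0.66 against 1.41. Pdgfra, the growth factor receptor that defines these precursors (chromosome 5, 75548316 to 75594229, mm9), was at 0.102 FPKM in CTRL, 0.0252 in ETOP, 42.7 in CTRL2 and 43.0 in NMDA. About 9 fragments in CTRL stood against about 5388 in CTRL2, a scaled fold of 145 (interval 80.3 to 334). Sox10, the transcription factor of the whole oligodendrocyte lineage, was at 0.0582, 0 (listed), 13.7 and 13.5 FPKM in the same order. Its scaled fold of 81.9 (25.1 to 753) rests on about 2 fragments in CTRL. The pair CTRL and ETOP thus held almost no transcript of either gene, and CTRL2 and NMDA held like amounts.

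The lineage was not absent from CTRL by every marker. Olig2, a transcription factor of the lineage and of its progenitors, was at 1.85, 0.437, 38.3 and 36.2 FPKM in CTRL, ETOP, CTRL2 and NMDA, a scaled fold of 7.17 (5.56 to 9.30). Olig1, its neighbour on chromosome 16 (91270014 to 91272184), was at 16.6, 3.36, 78.2 and 78.1 FPKM, a scaled fold of only 1.64 (1.49 to 1.80). Cspg4, the NG2 proteoglycan of precursors and pericytes, was at 0.109 FPKM in CTRL and 5.27 in CTRL2. Gpr17, a receptor of cells leaving the precursor stage, was at 0.00930 and 15.1 FPKM, and its exons overlap a gene on the opposite strand. Late myelin transcripts were low throughout. Of the 11 myelin genes with a row in the tables, 7 were compared, 6 of them through CTRL2 alone, with a median of 0.34 and 2 at least 2-fold higher. These were Mbp, myelin basic protein, at 0.937 and 9.27 FPKM in CTRL and CTRL2, and Cnp, an early enzyme of myelinating cells, at 1.80 and 21.8. Mobp stayed under 0.1 FPKM in all 4 libraries.

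**Figure D1:**
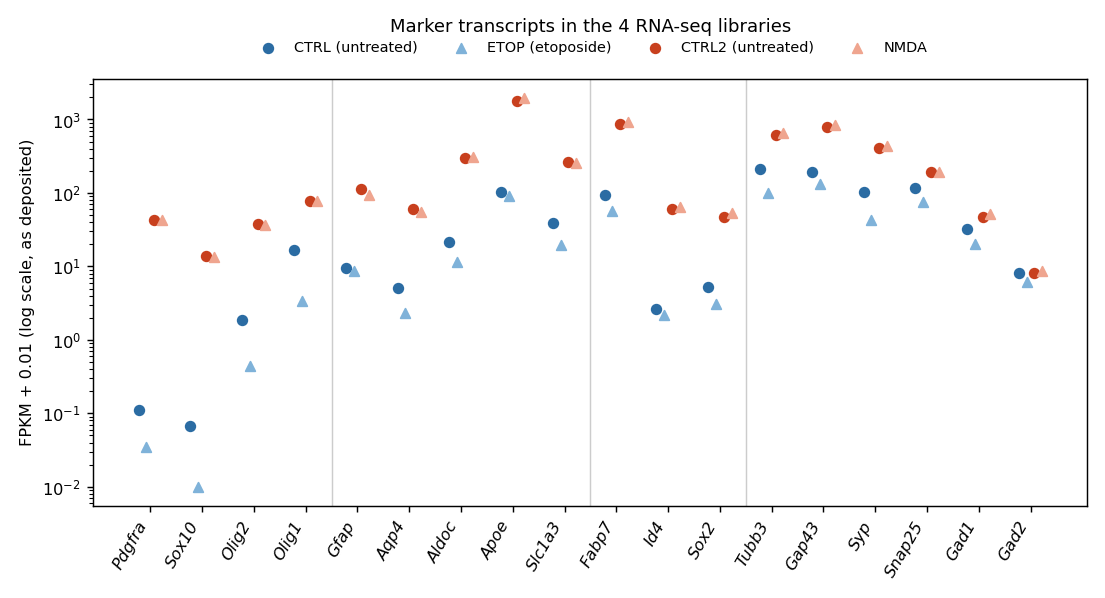
FPKM plus 0.01 on a log axis for 18 marker genes in the 4 RNA-seq libraries, 1 point per library, with vertical lines between oligodendrocyte lineage, astrocyte, progenitor and neuronal genes. Pdgfra is at 0.102 FPKM in CTRL and 42.7 in CTRL2, whereas Gad2 is at 8.16 and 8.05. For each of the 18 genes NMDA lies near CTRL2 and ETOP lies below CTRL.

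Astrocyte transcripts were higher in CTRL2 throughout the list. All 20 of the members compared were above the median gene and 15 were at least 2-fold higher, with a median of 1.39, and 2 of the 20 were under 1 FPKM in CTRL. The remaining member, Gjb6, was under 1 FPKM in both. Apoe, the lipid carrier that astrocytes secrete (chromosome 7, 20281593 to 20284515), was at 104 FPKM in CTRL, 91.0 in ETOP, 1803 in CTRL2 and 1948 in NMDA, a scaled fold of 6.03 (5.77 to 6.31). Gfap, the intermediate filament of astrocytes, was at 9.59, 8.64, 113 and 93.9 FPKM in the same order, a scaled fold of 4.08 (3.67 to 4.56). The water channel Aqp4 was at 5.01 and 61.4 FPKM in the controls, the gap junction protein Gja1 at 4.59 and 65.1, and the glycolytic enzyme Aldoc at 21.8 and 301. Slc1a3, a glutamate transporter that progenitors also express, was at 38.5 and 260 FPKM, a scaled fold of 2.34 (2.24 to 2.44). The neurotensin receptor Ntsr2 had 0.531 FPKM in CTRL and 23.5 in CTRL2. None of these 7 genes had coding sequence found elsewhere in the genome by the search described below.

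Genes that astrocytes raise in inflammation did not share that direction. Of 22 reactive astrocyte members compared, 7 were above the median gene, 3 were 2-fold or more higher, 7 were 2-fold or more lower, and the median was -0.46. Of the 22, 10 passed the filter through CTRL2 alone and 2, Timp1 among them, through CTRL alone. Lcn2, an iron-binding secreted protein, was at 23.9 FPKM in CTRL, 3.78 in ETOP, 13.1 in CTRL2 and 8.65 in NMDA. It was thus lower in CTRL2 even as deposited, and 5.25-fold (4.55 to 6.04) after scaling. Cp, the copper carrier ceruloplasmin, was at 7.43, 2.46, 3.18 and 2.66 FPKM, 6.75-fold lower in CTRL2 (5.81 to 7.85), and its exons overlap a gene on the opposite strand. Timp1, an inhibitor of matrix proteases, was at 2.01 and 0.446 FPKM in the controls. In the other direction S1pr3, a sphingosine phosphate receptor, was at 2.20 and 18.1 FPKM and S100a10 at 10.8 and 81.1. The list median after median scaling was -0.00, and with at least 5 FPKM required in either library it was 0.75, so the list as a whole had no settled direction.

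Radial glia transcripts were mostly above the median gene in CTRL2. Of 17 genes 16 were above it and 7 at least 2-fold higher, with a median of 0.91, and 7 were under 1 FPKM in CTRL. Fabp7, a fatty acid carrier of radial glia and young astrocytes, was at 94.1 FPKM in CTRL, 56.2 in ETOP, 867 in CTRL2 and 912 in NMDA, a scaled fold of 3.20 (3.01 to 3.39). Id4, an inhibitor of neuronal differentiation factors, was at 2.64 and 60.1 FPKM in the controls, and Sox2, a factor of neural stem cells and glia, at 5.28 and 46.9. Hes5, a target of Notch signalling, was at 0.631 and 16.5 FPKM. The intermediate filament Nes was the exception, at 8.84 and 16.7 FPKM with a relative log2 of -0.47. Of 10 intermediate progenitor genes 6 were compared, 3 of them through CTRL2 alone. Of the 6, 5 were above the median gene and 2 at least 2-fold higher, with a median of 0.54. Those 2 were Dll3, a Notch ligand family member, at 0.117 FPKM in CTRL and 8.39 in CTRL2, and Gadd45g, a stress and differentiation gene, at 3.73 and 30.3. Hes6, a factor of differentiating progenitors, was at 5.38 and 27.5 FPKM. Eomes, which defines these cells in cortex, was at 0.0312 FPKM in CTRL and 0.149 in CTRL2. Astrocytes also express many of the radial glia genes, and the lists do not separate them.

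Cell cycle transcripts were mostly low in CTRL, where 26 of the 36 genes compared were under 1 FPKM. Of the 36, 27 were above the median gene, or 33 after median scaling. Pcna had the highest level, at 11.7 FPKM in CTRL and 48.8 in CTRL2. At least 2-fold higher were 3 genes (8.33%), near the 8.02% of all genes, and 1 was lower. The list median was 0.43, with 0.53 after median scaling and -0.19 with a pseudocount of 10 FPKM. Top2a, the topoisomerase of dividing cells, was at 0.797 FPKM in CTRL, 0.234 in ETOP, 11.8 in CTRL2 and 11.5 in NMDA, a scaled fold of 5.15 (3.94 to 6.76). Ccna2 was at 1.08 and 10.1 FPKM in the controls and Mcm6, of the replication helicase, at 1.14 and 9.82. Tyms, which makes thymidylate, went the other way at 4.95 and 1.56 FPKM. It shares 32.1% of its coding words with other places in the genome and has an overlapping gene on the opposite strand. Of the 36 genes 12, Pcna and Tyms among them, share 10% or more, with a median of 0.58. The other 24 had a median of 0.32.

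Neuronal transcripts were abundant in both libraries and differed between them about as the median gene did. This does not measure the share of neurons in either culture. Of 19 pan-neuronal genes 10 were above the median gene, none was 2-fold higher and 2 were 2-fold lower, with a median of 0.06, or -0.14 after median scaling. Tubb3, the neuronal tubulin, was at 209 FPKM in CTRL, 101 in ETOP, 606 in CTRL2 and 653 in NMDA, a scaled fold of 1.00 (0.975 to 1.03). Gap43, a growth cone protein, was at 194, 132, 797 and 842 FPKM, a scaled fold of 1.42 (1.38 to 1.47). The neurofilament subunits Nefm and Nefh were the members lower in CTRL2. Nefm was at 5.93 and 6.34 FPKM in the controls and Nefh at 1.98 and 2.59, which were 2.70-fold (2.32 to 3.12) and 2.21-fold (1.75 to 2.81) lower after scaling. Map2 has no row of that symbol in the tables and was not analysed.

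Synaptic lists stayed close to the median gene as deposited, with no member past 2-fold. The median was -0.08 for 24 presynaptic genes and -0.02 for 33 genes of glutamate receptors and their scaffolds. After median scaling these medians were -0.21, with 5 of 24 genes above the median gene, and -0.18, with 12 of 33. Cplx1, a clamp on vesicle fusion, had the lowest presynaptic value, at 37.5 and 48.7 FPKM in the controls. Its relative log2 was -0.96, and -1.19 after median scaling, where it was the 1 synaptic gene past 2-fold. Grin1, the obligatory subunit of the NMDA receptor, was at 19.8 and 87.2 FPKM, and Gria2, an AMPA receptor subunit, at 63.0 and 125. Excitatory neuron genes had a median of 0.20 over 18 genes. Slc17a7, the vesicular glutamate transporter of mature cortical neurons, was at 25.4 and 115 FPKM and Slc17a6, the one used earlier, at 6.00 and 11.0. Nrgn, a calmodulin-binding protein of maturing dendrites, was the only member past 2-fold, at 8.07 FPKM in CTRL, 5.66 in ETOP, 153 in CTRL2 and 149 in NMDA.

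Inhibitory neuron genes leaned the other way as deposited. Of 18 compared 6 were above the median gene, none was 2-fold higher and 3 were 2-fold lower, with a median of -0.33. After median scaling 8 were above it and 4 were 2-fold lower, with a median of -0.17. The scaled medians were 0.04 for excitatory neuron, -0.14 for pan-neuronal and -0.21 for presynaptic genes. Gad2, a synthetic enzyme of GABA (chromosome 2, 22477847 to 22549397), was at 8.16 FPKM in CTRL, 6.04 in ETOP, 8.05 in CTRL2 and 8.54 in NMDA, 2.92-fold lower in CTRL2 after scaling (2.64 to 3.23). Lhx6, a factor of interneurons born in the medial ganglionic eminence, was at 4.22 and 4.56 FPKM in the controls, and Reln, a secreted guidance protein, at 7.34 and 9.27. The other synthetic enzyme, Gad1, was at 32.4 and 47.5 FPKM, with a relative log2 of -0.79. Dlx1, Calb2 and Sst had relative log2 values of 0.79, 0.78 and 0.73, so the list was not of 1 direction. Sst was also at 87.9 FPKM in ETOP against 34.6 in CTRL.

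Ratios taken inside each library avoid the difference in scale between the tables. The summed FPKM of the astrocyte list was 27.9% of the pan-neuronal sum in CTRL, 25.5% in ETOP, 100.1% in CTRL2 and 98.0% in NMDA. Without Apoe it was 20.2%, 15.3%, 53.5% and 49.7%. The oligodendrocyte precursor sum was 1.74%, 0.66%, 6.25% and 5.87%, and without Olig1 0.50%, 0.29%, 4.22% and 3.93%. The radial glia sum was 16.7%, 11.7%, 39.4% and 37.7%, and the cell cycle sum 3.05%, 4.22%, 5.62% and 5.18%. Relative to neuronal transcripts CTRL2 therefore held 3.59 times the astrocyte sum of CTRL, 3.60 times the precursor sum, 3.81 times the myelin sum, 2.36 times the radial glia sum and 2.27 times the intermediate progenitor sum. The same ratio was 2.10 for microglia, 1.83 for endothelium, 1.70 for fibroblast and 1.65 for pericyte genes, all lists of low level. It was 1.98 for heat shock, 0.86 for presynaptic and 0.85 for inhibitory neuron genes. For intermediate progenitor genes it was 1.18 between NMDA and ETOP. In bulk RNA more cells of a type and more RNA per cell cannot be told apart.

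Markers of other cell types of the brain were mostly low. Of 18 microglia genes 4 were compared, and the defining markers Cx3cr1, P2ry12 and Tmem119 were under 0.2 FPKM in all 4 libraries. The microglia sum was 3.83 FPKM in CTRL and 23.3 in CTRL2. Of 10 endothelial genes only Kdr, at 0.128 and 2.83 FPKM in the controls, passed the filter, and Cldn5 was at 0 in CTRL and 0.0584 in CTRL2. The fibroblast collagens Col1a1, Col1a2 and Col3a1 did not exceed 0.212 FPKM in the controls. The 3 compared members of that list of 12 had a median of 0.69. They were the matrix proteins Dcn at 1.42 and 8.77 FPKM, Ogn at 0.693 and 8.85 and Fn1 at 1.61 and 4.25 in CTRL and CTRL2. Among 5 contractile and pericyte genes compared, the median was 0.41. Acta2, smooth muscle actin, was at 4.61 FPKM in CTRL, 0.0944 in ETOP, 25.3 in CTRL2 and 19.6 in NMDA.

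**Figure D2:**
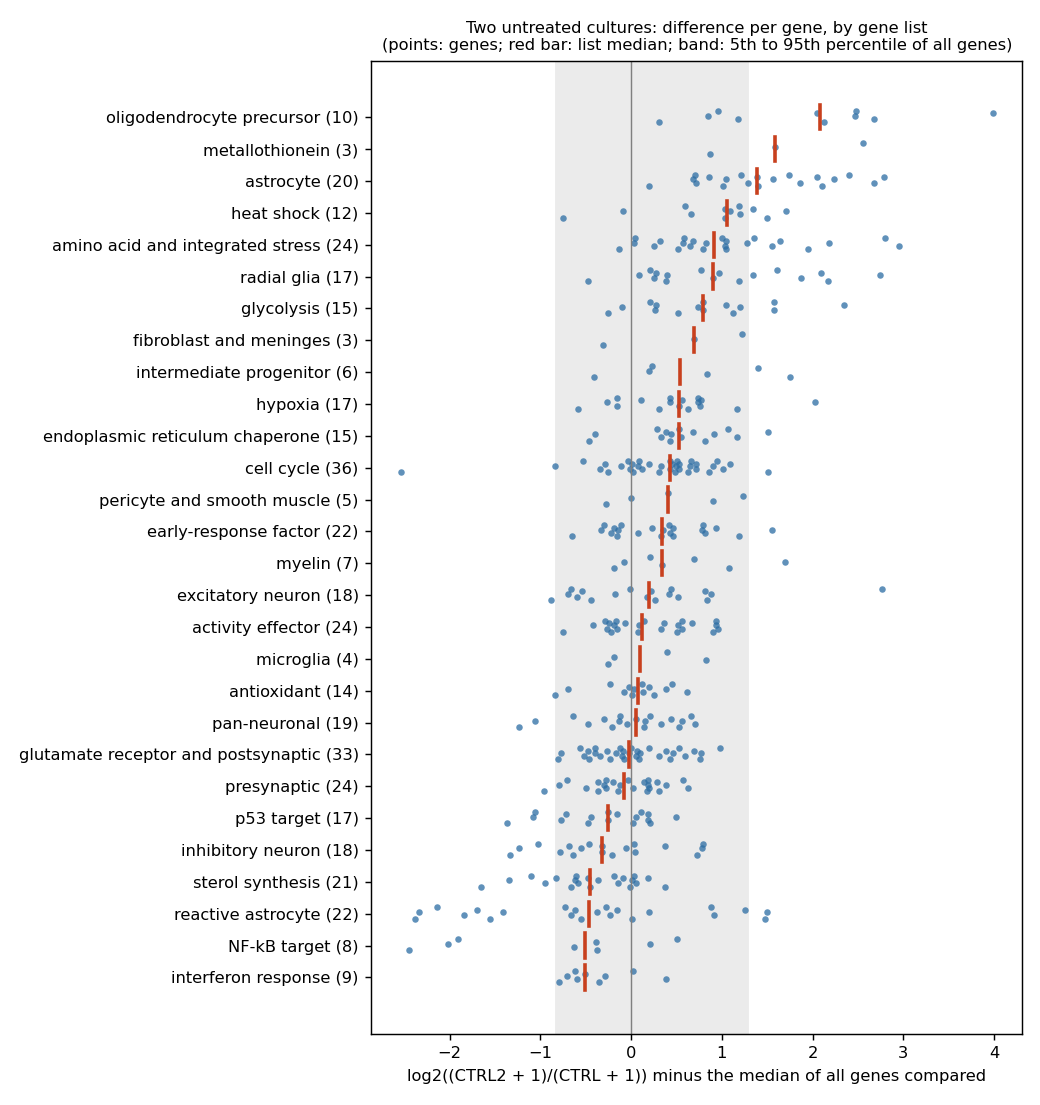
Relative log2 of CTRL2 against CTRL for every compared member of the 28 lists with at least 3 such members, 1 point per gene, the red bar marking the list median and the number compared in brackets. The grey band spans the 5th to 95th percentile of all 12987 single genes, from -0.82 to 1.29, and is to be read against the points, not the bars. The highest point of the precursor list is Pdgfra at 3.99.

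Genes of amino acid supply and the integrated stress response were higher in CTRL2 as a list. In this response, kinases that sense lack of amino acids or misfolded protein slow translation, and the factor Atf4 then raises genes for amino acid synthesis and transport. Of 24 genes 23 were above the median gene and 11 (45.8%) were at least 2-fold higher, against 8.02% of all genes. None was 2-fold lower, and the median was 0.91. After median scaling 8 were at least 2-fold higher, with a median of 0.72. Slc7a3, a transporter of cationic amino acids, was at 1.10 FPKM in CTRL, 1.25 in ETOP, 35.7 in CTRL2 and 31.7 in NMDA, a scaled fold of 11.2 (8.24 to 15.5). The serine pathway enzyme Psat1 was at 14.6 FPKM in CTRL, 176 in CTRL2 and 180 in NMDA, a scaled fold of 4.18 (3.83 to 4.57). Phgdh, the first enzyme of that pathway, was at 5.63, 3.18, 127 and 123 FPKM, but 85.9% of its coding words occur elsewhere in the genome. Astrocytes and radial glia make much of the serine of brain, and the glial lists above differ in the same direction. Their part in these values was not tested. Ddit3, a stress factor downstream of Atf4, was at 9.10 and 96.7 FPKM in the controls and Atf4 itself at 45.9 and 239, with relative log2 values of 1.95 and 1.03. Asns, asparagine synthetase, was at 34.2 and 175 FPKM and had a relative log2 of 1.00.

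Heat shock genes were mostly above the median gene in CTRL2. Of 12 compared 10 were above the median gene and 8 (66.7%) at least 2-fold higher, against 8.02% of all genes. Their median was 1.06. After median scaling 4 were past 2-fold, with a median of 0.81. All genes in the highest of 10 bins by level had a median of 0.52, and 359 of 1299 were at least 2-fold higher. The part of level in the heat shock values was not tested. The abundant constitutive chaperones were among the 8. Hspa8 was at 182 FPKM in CTRL, 141 in ETOP, 1041 in CTRL2 and 994 in NMDA, and Hsp90aa1 at 82.5, 56.7, 528 and 528. The small chaperone Cryab, also abundant in glia, was at 2.32 and 26.2 FPKM in the controls, and Serpinh1, a chaperone of collagen, at 8.68 and 67.4. Hsph1 and Hspb8, a large and a small chaperone, were at 7.77 and 45.5 FPKM and at 2.51 and 19.2. Dnajb1, a cochaperone, was at 7.26 and 18.4 FPKM with a relative log2 of -0.09. Some members, named after their values were seen, were low in both cultures. Hspa1a was at 0.890 FPKM in CTRL and 0.746 in CTRL2, Hspb1 at 0.451 and 0.466, Bag3 at 0.422 and 0.675, and Hspa1b at 0.566 and 1.32 with a relative log2 of -0.75. Hspa1a and Hspa1b are near-identical neighbours, so their separate values are uncertain. The endoplasmic reticulum chaperones had a median of 0.53 over 15 genes, 13 of them above the median gene and 3 past 2-fold. After median scaling 1 of them was past 2-fold. Their main member Hspa5 was at 47.7 and 229 FPKM in the controls.

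Members of these lists differ in the letters of their promoters. Promoter windows from 250 bases before to 50 after the gene start were read from RefSeq on GRCm38.p6, and the motifs were chosen after the values were seen. The heat shock element GAANNTTC reads the same on both strands. It was present for 6 of the 9 compared heat shock genes that have a window, against 9.04% of all genes. The C/EBP-ATF element TGATGNAA, searched on both strands, was present for 6 of 21 amino acid and integrated stress genes, against 4.51% of all genes. The 6 had a median relative log2 of 0.44 and the 15 without it 1.05. For the heat shock element the medians were 1.03 with it and 0.66 for the 3 genes without it. The first windows below are shown because Hspd1 and Hspe1, 2 mitochondrial chaperones higher in CTRL2, share 1 heat shock element between divergent starts. Hspa1b has one and was not higher. Asns and Chac1 are shown as the 2 genes with the C/EBP-ATF element and the largest relative log2. The others with it, Trib3, Slc7a11, Nupr1 and Vldlr, were at 0.57, 0.32, 0.04 and 0.04. Capitals mark the match, and each sequence reads 5′ to 3′ on the strand of the gene.
Hspe1 (chr1:55088039-55088096, plus strand): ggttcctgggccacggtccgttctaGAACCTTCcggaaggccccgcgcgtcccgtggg
Hspd1 (chr1:55088039-55088096, minus strand): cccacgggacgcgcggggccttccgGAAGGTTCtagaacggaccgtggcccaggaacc
Hspa1b (chr17:34959310-34959367, minus strand): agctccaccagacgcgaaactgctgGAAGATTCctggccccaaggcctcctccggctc
Asns (chr6:7693200-7693257, minus strand): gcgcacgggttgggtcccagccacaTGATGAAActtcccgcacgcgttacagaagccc
Chac1 (chr2:119351024-119351081, plus strand): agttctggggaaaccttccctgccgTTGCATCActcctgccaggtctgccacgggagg
The match of Chac1, a glutathione-degrading enzyme of the stress response, lies on the strand opposite to the gene, and that of Asns overlaps a heat shock element match. Hspe1 and Hspd1 each had a relative log2 of 1.03, at 26.1 and 137 FPKM and at 21.9 and 116 FPKM in CTRL and CTRL2. Chac1 was at 5.13 and 46.9 FPKM. A match is a run of letters and not a shown binding site.

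Glycolysis genes were also higher in CTRL2, with a median of 0.79 over 15 genes, 13 above the median gene and 6 past 2-fold. After median scaling 4 were past 2-fold, with a median of 0.51. Pgk1, phosphoglycerate kinase, was at 25.2 FPKM in CTRL, 23.3 in ETOP, 332 in CTRL2 and 294 in NMDA, and Ldha, lactate dehydrogenase, at 45.8, 39.5, 347 and 301. The glucose transporter Slc2a1 was at 2.20 and 22.8 FPKM in the controls, a scaled fold of 3.59 (2.86 to 4.56). Hypoxia genes had a median of 0.53 over 17, of which 13 were above the median gene. Past 2-fold were 2 (11.8%), near the 8.02% of all genes, and 1 after median scaling. The 2 were Fam162a at 4.75 and 57.7 FPKM and Bnip3, a mitophagy receptor, at 18.6 and 109. Vegfa, a standard target of hypoxia-inducible factor chosen after its values were seen, was at 6.49 and 30.2 FPKM with a relative log2 of 0.74. The hypoxia response core ACGTG, searched on both strands, was present in the windows of 10 of 14 glycolysis genes and 12 of 14 hypoxia genes, against 21.8% of all genes. The medians with and without it were 0.96 and 0.66 for glycolysis, where 4 genes lacked it, and 0.55 and 0.29 for hypoxia, where 2 did. Of the glycolysis genes with it, Aldoa, Gapdh, Ldha, Pgam1 and Pgk1 also have 10% or more copied coding words, as described below. The others with it were Hk1, Hk2 and Pfkm, at 0.21, 0.27 and -0.11, and Slc16a3 and Slc2a1, both past 2-fold. The part of the motif apart from shared sequence was not tested. The glycolysis and hypoxia genes with the core and with the largest relative log2 are shown on GRCm38.p6 with each match in capitals. Pgk1 has 2 matches in the stretch shown, 1 on each strand, and that of Fam162a lies on the strand opposite to the gene.
Pgk1 (chrX:106186925-106186979, plus strand): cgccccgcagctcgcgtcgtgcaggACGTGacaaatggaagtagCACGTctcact
Fam162a (chr16:36071613-36071667, minus strand): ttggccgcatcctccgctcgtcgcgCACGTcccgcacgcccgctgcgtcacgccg

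Several of the most unequal metabolic and chaperone genes have near-identical copies. The share of each gene's 32-base coding words that also occur outside its own locus was counted on mm9 for 12321 genes. Genes with 0 such words had a median relative log2 of -0.02, and 7.20% of these 9364 genes were past 2-fold in either direction. For the 740 genes with 50% or more the median was 0.48 and 40.1% were past 2-fold. Of the glycolysis genes, the 7 at 10% or more (Aldoa, Gapdh, Gpi1, Ldha, Pgam1, Pgk1 and Tpi1) had a median of 0.79 and the 8 below it 0.27. Of the heat shock genes, the 6 at 10% or more had a median of 1.03 and the 6 below it 1.14. Among astrocyte genes 19 of 20 were below 10%, with a median of 1.40, and the 1 above it was Glul with a relative log2 of 0.71. All 10 precursor genes and all 17 radial glia genes compared were below 10%. Of other genes named here, Tubb3, Gad1, Mt2 and Bnip3 were at 10% or more, as were Hspa8, Hsp90aa1, Hspd1, Hspe1 and Hspa1b. The part that shared sequence plays in the glycolysis values was not tested beyond this split.

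**Figure D3:**
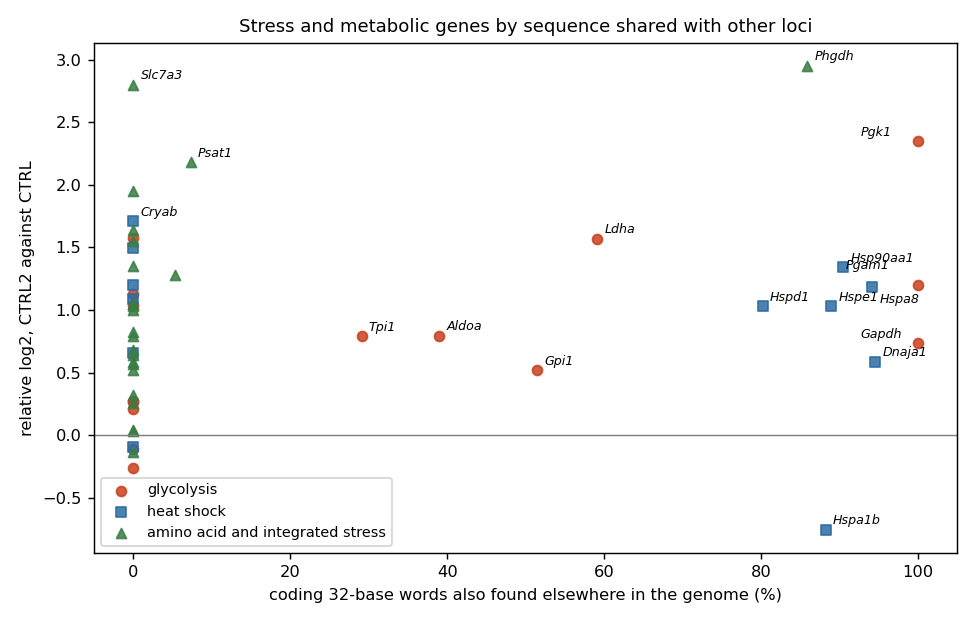
Relative log2 of CTRL2 against CTRL (vertical) against the percentage of a gene's 32-base coding words that occur elsewhere in the genome (horizontal), 1 point per gene of 3 lists. Pgk1 and Phgdh, at 100% and 85.9%, have relative log2 values of 2.35 and 2.95, and Slc7a3 and Psat1, at 0% and 7.35%, have 2.80 and 2.18.

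Metallothioneins, zinc-binding proteins made in quantity by astrocytes, were all above the median gene. Mt3, the brain form, was at 46.2 FPKM in CTRL, 43.4 in ETOP, 693 in CTRL2 and 644 in NMDA, a scaled fold of 5.20 (4.68 to 5.82). Mt1 was at 113, 105, 857 and 699 FPKM and Mt2 at 82.0 and 380 in the controls. Antioxidant genes that answer the factor Nrf2 lay near the median gene, with a median of 0.08 over 14 and none past 2-fold.

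Inflammatory and p53 lists had medians below the median gene as deposited, nearer to it after median scaling. Of 8 NF-kB targets compared 2 were above the median gene and 3 were 2-fold lower, with a median of -0.51, which was -0.13 after median scaling. Of the 8, 2 (Ccl2 and Cxcl1) passed the filter through CTRL alone, where they were higher, and 2 through CTRL2 alone. These targets are genes of low level, and all genes in the lowest of 10 bins by level had a median of -0.43. Ccl2, a monocyte chemokine, was at 3.04 FPKM in CTRL, 3.76 in ETOP, 0.849 in CTRL2 and 0.751 in NMDA, 10.3-fold lower after scaling (5.84 to 18.8). The adhesion molecule Icam1 was at 2.61, 1.28, 1.23 and 0.761 FPKM and the chemokine Cxcl1 at 1.96, 4.94, 0.968 and 1.00. Interferon response genes were scarce, with 9 of 22 compared and a median of -0.51, which was -0.06 after median scaling. Of the 9, 6 passed the filter through CTRL2 alone. Of 17 p53 targets 3 were 2-fold lower and none higher, with a median of -0.26, or -0.20 after median scaling. Pmaip1, a promoter of apoptosis, was at 3.41, 6.26, 3.29 and 3.26 FPKM, and Cdkn1a, the cell cycle inhibitor p21, at 13.2, 12.4, 25.2 and 22.2.

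Sterol synthesis genes were lower in CTRL2 in 16 of 21 members, 3 of them 2-fold, with a median of -0.45 and, after median scaling, -0.70. With a pseudocount of 10 FPKM the median was 0.04. Hsd17b7, an enzyme of the late pathway, was at 15.2 FPKM in CTRL, 6.03 in ETOP, 11.8 in CTRL2 and 12.2 in NMDA, 3.70-fold lower after scaling (3.39 to 4.05). Lss, which closes the sterol rings, was at 26.5, 8.11, 26.1 and 26.8 FPKM in the same libraries. Both genes had their lowest deposited value in ETOP.

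Activity-dependent genes of neurons differed in a few members only. Of 22 early-response factors 14 were above the median gene and 2 (9.09%) past 2-fold, near the 8.02% of all genes, with a median of 0.34. Of 24 later effectors 14 were above and none past 2-fold, with a median of 0.12. Fos, a subunit of the AP-1 factor (chromosome 12, 86814851 to 86818219), was at 2.68 FPKM in CTRL and 25.9 in CTRL2, a scaled fold of 3.36 (2.69 to 4.30). Fos was also at 14.7 FPKM in ETOP and 40.2 in NMDA, so CTRL alone held little of it. Egr1 was at 4.58 FPKM in CTRL and 30.9 in CTRL2, with 3.45 in ETOP and 42.6 in NMDA. Arc, a synaptic effector, was at 0.706 and 7.27 FPKM in the controls, a scaled fold of 3.57 (2.50 to 5.43), although its relative log2 of 0.95 stayed under 2-fold. The pseudocount of 1 FPKM lessens the difference of genes as low as Arc in CTRL.

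Astrocyte, precursor and radial glia lists were also higher in NMDA than in ETOP. The NMDA library was set against ETOP by the same measure, which uses neither control, but treatment and culture cannot be told apart there. The trend with level described below was present there too, from a median of -0.74 in the lowest bin to 0.57 in the highest, and its part in the list medians was not tested. The median was 1.85 for astrocyte genes, 1.88 for oligodendrocyte precursor genes, 1.56 for radial glia, 1.05 for heat shock and 0.84 for amino acid and integrated stress genes. The myelin median was 0.01, with 3 of 6 genes above the median gene. Lists with the opposite sign in this comparison included microglia (-0.28), sterol synthesis (0.52), early-response factors (-0.30) and activity effectors (-0.48). Neuronal lists other than inhibitory neuron were higher there too. The median was 0.43 for pan-neuronal, 0.43 for excitatory neuron, 0.52 for presynaptic and 0.79 for glutamate receptor and postsynaptic genes. The last 2 lists, at -0.08 and -0.02 between the controls, thus also changed sign. The inhibitory neuron median was -0.24.

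**Figure D4:**
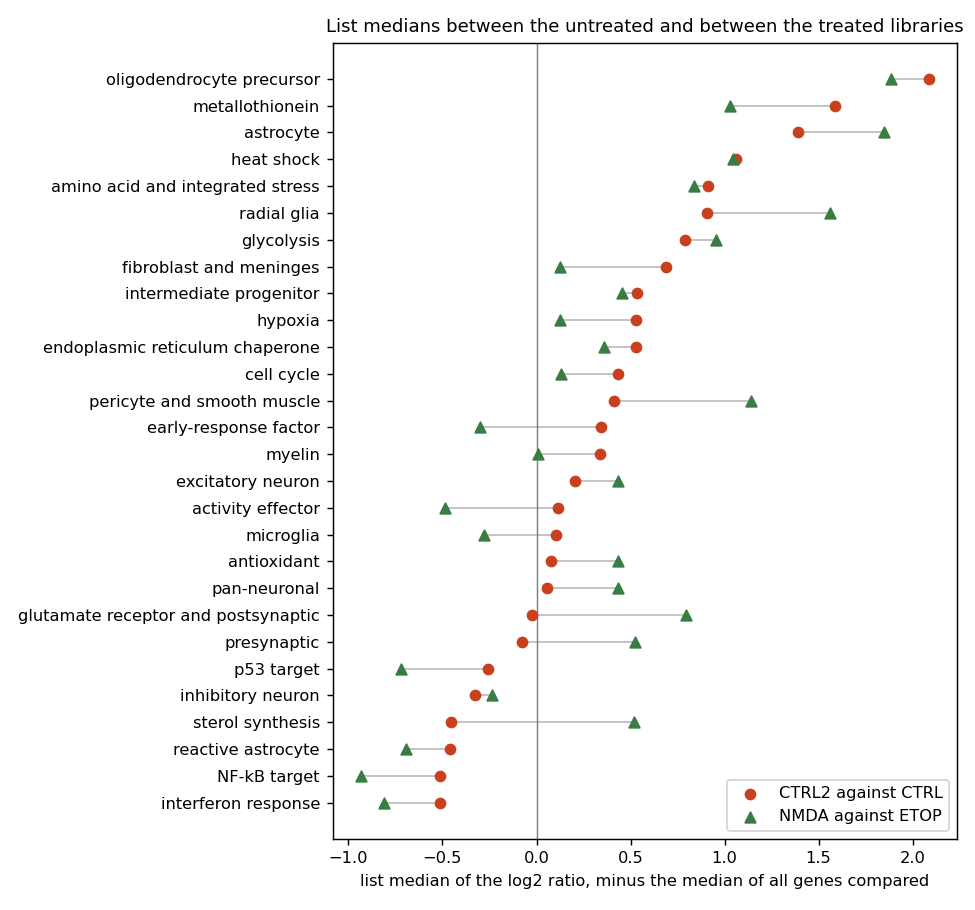
Median relative log2 of each list with at least 3 compared members, between the untreated libraries (circles) and between the treated libraries (triangles), ordered by the former. The astrocyte and oligodendrocyte precursor lists are high in both (1.39 and 1.85, 2.09 and 1.88), whereas sterol synthesis is at -0.45 and 0.52.

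Small structured RNAs held the extremes, with relative log2 values from -11.15 to 15.01 over 183 genes. Outside that class, large differences were found in ribosomal protein genes and in pseudogenes. Rpl41, a ribosomal protein gene, was at 3.15 FPKM in CTRL and 1986 in CTRL2 and Rps28 at 5.92 and 1406. The 80 genes of cytosolic ribosomal proteins had a median relative log2 of 2.14, with 67 past 2-fold higher, and a median of 1.59 between NMDA and ETOP. At the other end Gm10136 was at 19.6 FPKM in CTRL and listed at 0 in CTRL2, and Gm5148 at 27.3 and 0.420. Pseudogenes and related sequences had a median of -0.35 over 97 genes. Arhgap21 and Camk1d, protein-coding genes with under 1% of copied words, were at 10.1 and 7.13 FPKM in CTRL and listed at 0 in both CTRL2 and NMDA. Mtrnr2l, a symbol for a copy of mitochondrial ribosomal RNA, was at 2.69 and 152665 FPKM. The handling of reads with several places was not given in the sources used here. Reads of overlapping genes are uncertain as well, since the use of strand in counting was not given. Among the genes named, Ccna2, Cnp, Cp, Ddit3, Dlx1, Egr1, Fn1, Glul, Gm5148, Gpi1, Gpr17, Grin1, Hes5, Hspd1, Hspe1, Icam1, Id4, Lss, Nefm, Reln, Rps28, Slc2a1, Tpi1 and Tyms have exons that overlap another gene on the opposite strand. The same holds for Col1a1, Hk1, Hspa1a and Slc16a3. Gria2, Hspa8 and Top2a have such an overlap on the same strand.

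The tables also differ in depth and form. The FPKM of 1 fragment on 1 kb, read from low values of single-exon genes, put the fragment totals used for scaling at about 14.1 M in CTRL and 19.2 M in CTRL2, with 11.9 M in ETOP and 18.1 M in NMDA. At least 1 FPKM was listed for 10459 genes in CTRL and 12886 in CTRL2. The relative log2 moved with level, from a median of -0.43 in the lowest of 10 equal bins of genes by mean FPKM to 0.52 in the highest, and with transcript length, from 0.69 in the shortest of 10 bins to -0.25 in the longest. After median scaling the level bins ran between -0.07 and 0.26, but the length bins still ran from 0.54 to -0.25. Centred within the length bins, the medians of the astrocyte and precursor lists were 1.53 and 1.92.

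**Figure D5:**
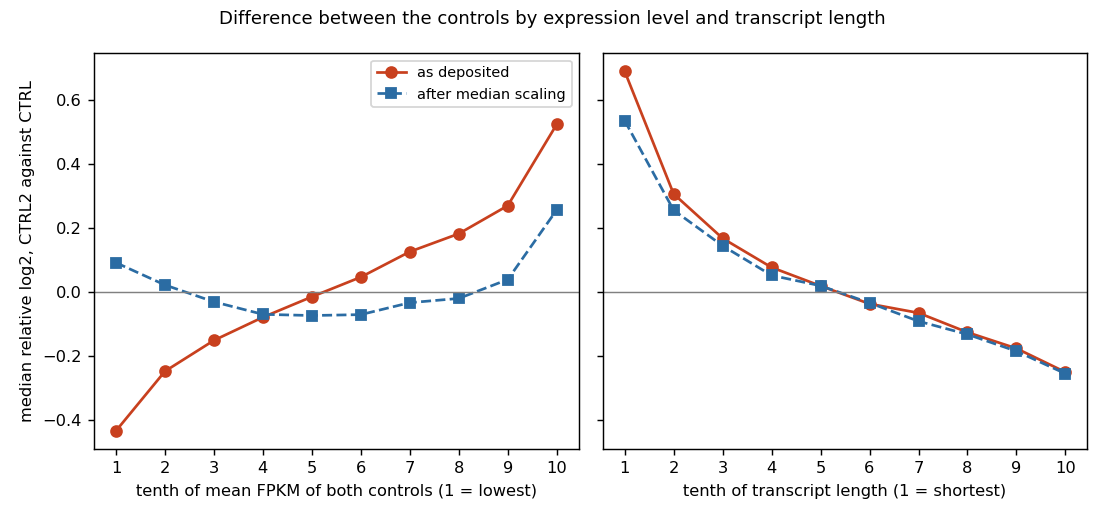
Median relative log2 of CTRL2 against CTRL in 10 equal bins of genes by mean FPKM of both controls (left) and by transcript length (right), as deposited (circles) and after median scaling (squares). The level trend of the deposited values, from -0.43 to 0.52, is smaller after scaling, and the length trend, from 0.69 to -0.25, remains.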

How the data were processed

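Per the labels' protocols, libraries were made from total RNA (TruSeq Total RNA kit) and read from both ends. Of tools, the submitters' processing notes list Cufflinks 2.0.0, Cuffdiff, TopHat and Bowtie for which no role is stated, and of builds mm9. The deposited FPKM, computed by the authors, were taken unchanged. They are not counts, and the depth behind them, about 14.1 M fragments in CTRL and 19.2 M in CTRL2, is approximate.

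The members and lists were chosen with earlier results of these data known. The 29 lists hold 537 genes. Named genes are the 15 largest and 15 smallest relative log2 values outside structured RNAs, and in each list the 4 highest by mean FPKM, the 4 largest in size of relative log2 and, for cell types, the first-named 2. Genes outside that rule were picked with values in view. Some genes that the rule takes are given only in list counts, and some are not reported here. Loci come from the tables, and transcript lengths and exon overlaps from GENCODE vM1, matched for 21488 of 22440 genes. Every 16th 32-base coding word was searched on both strands of the genome, and the words of a gene's own locus were not counted. The steps ran in Python 3.11.15 with pandas 2.3.3 and scipy 1.17.1 and were tested on simulated data. Alternatives were 2 other pseudocounts, median scaling, 3 filters, centring by transcript length and leaving out genes that share a locus. A further 3 were added after seeing the data. No paired analysis or test was run with 1 library per group.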

Additional observations from a re-analysis of the deposited data

How the results depend on the processing

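The astrocyte median lay between 1.19 and 1.63, the heat shock median between 0.80 and 1.28 and the radial glia median between 0.59 and 1.16 under the alternatives that were run, 8 planned and 3 added after seeing the data. The number of genes at least 2-fold higher in CTRL2 was 1606 with a pseudocount of 0.1 FPKM, 686 with at least 1 FPKM in both libraries, 1674 with no filter and 613 with median scaling and length centring together. The number of genes at least 2-fold lower in CTRL2 was 73 with a pseudocount of 10 FPKM, 190 with at least 5 FPKM in either library, 2527 with no filter and 256 without genes with copied coding sequence. With a pseudocount of 0.1 FPKM the list median was 3.78 for oligodendrocyte precursor, 1.64 for myelin and 1.50 for microglia genes. With 10 FPKM it was 0.66 for oligodendrocyte precursor, -0.28 for myelin, -0.19 for cell cycle and 2.21 for metallothionein genes. With at least 5 FPKM in either library it was 0.75 for reactive astrocyte and 0.95 for myelin genes, and with at least 1 FPKM in both -1.05 for reactive astrocyte and 0.92 for oligodendrocyte precursor genes. With no filter it was -0.77 for microglia, -0.43 for pericyte and smooth muscle and -0.92 for fibroblast and meninges genes. The metallothionein median was 0.90 with length centring and 0.76 with scaling added. Of named genes, Cspg4 was at -0.012, Grin2d at -0.091 and P4ha2 at -0.075 with 10 FPKM, and Ddx58 at 0.036, Sst at -0.078 and Tnfaip3 at 0.16 with scaling and length centring. The causes were not tested, except that a filter changes which genes are compared. No paired analysis was possible because each control is 1 library. Depth limits genes below about 0.213 FPKM in CTRL and 0.156 in CTRL2, the value of 3 fragments on 1 kb.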

Other observations

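Motile cilium and ependymal transcripts, a list of 46 genes chosen after values of some of them were seen and so no support for a direction, were low in CTRL and present in CTRL2. Ependymal cells line the ventricle, arise from radial glia and carry motile cilia. Of the 38 genes compared, 33 were above the median gene and 15 were at least 2-fold higher, against 8.02% of all genes. None was 2-fold lower, and the median relative log2 was 0.80, or 0.89 after median scaling. Foxj1, the master factor of motile cilia, was at 2.86 FPKM in CTRL, 1.46 in ETOP, 32.7 in CTRL2 and 26.7 in NMDA. Dynlrb2, a dynein light chain, was at 0.527, 0.239, 24.5 and 20.0 FPKM, and Rsph1, of the radial spoke, at 0.389, 0.0874, 13.9 and 10.5. Dnahc5, a heavy chain of outer arm dynein, stayed low at 0.211 FPKM in CTRL and 1.23 in CTRL2. Dynlrb2, Rsph1 and Dnahc5 were under 1 FPKM in CTRL and so passed the filter only through CTRL2. The number of such members was not counted. The summed level of the list was 33.4 FPKM in CTRL, 24.2 in ETOP, 376.9 in CTRL2 and 325.0 in NMDA, and the median between NMDA and ETOP was 0.13.

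Genes listed at 0 in one control and at 5 FPKM or more in the other numbered 136 with the 0 in CTRL, of which 112 were small structured RNAs, and 21 with the 0 in CTRL2, of which 9 were.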
